A study of Mus musculus with 6 samples.

Results

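The messenger RNA of the insulin receptor, its adaptors, PI3K, Akt, the mTOR complexes and the glucose transporters was measured in mouse epididymal white adipose tissue, in a comparison of ZFP251 knockout with wild-type mice. The 32 genes were chosen by name, from the symbols listed for this pathway, and all 32 were found among the 21829 genes of the deposited table. Each of the 32 had a mean of at least 1 FPKM (fragment number per length of transcript and per mapped fragments) over the 6 libraries, and so each was among the 12539 genes tested.

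The tissue is the visceral fat pad beside the testis, and the donors were male, of strain C57BL/6J, 20 weeks old and fed a normal diet. The WT group has 3 libraries labelled wild type and the KO group 3 labelled ZFP251 KO, and sex, strain, age and diet were common to all 6. The labels give neither the allele nor the cells in which the gene was deleted, and the wild-type mice are described as littermates. Whether each library is 1 mouse is not said in the labels, so the spread that the p-values rest on is that of the libraries and may in part be technical. In RNA of whole tissue, fewer cells of a type and less RNA per cell cannot be told apart.

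Insulin binds its receptor on the fat cell and makes it phosphorylate the insulin receptor substrates, which recruit PI3K. The lipid that PI3K makes brings Akt to the membrane, where PDK1 and mTOR complex 2 activate it. Akt then inactivates the Rab GTPase-activating proteins TBC1D4 and TBC1D1, so that vesicles carrying the glucose transporter GLUT4 reach the surface, and it restrains GSK3, the FOXO factors and the TSC complex, the brake on mTOR complex 1. Nearly all of these steps are controlled by phosphorylation and by movement of proteins, neither of which an RNA level records.

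Zfp251 itself was higher in the libraries labelled KO, with 6.48, 5.86 and 6.48 FPKM in its replicates 1 to 3 and 3.73, 3.56 and 2.95 FPKM in the WT libraries in that order (limma adjusted p = 0.223). The labels do not give the allele and an RNA level does not show whether the protein is lost, so the knockout could not be checked here. Every direction below is that of the libraries labelled KO. Adipoq, the defining adipocyte gene, had between 2097 and 5889 FPKM in the 6 libraries, the highest of them in WT 3. WT 1 stood apart from WT 2 and WT 3 by RNA of ciliated epithelium: Foxj1, the regulator of motile cilia, had 13.9 FPKM there against 0.034 and 0 FPKM, and between 20.0 and 44.2 FPKM in the KO libraries. WT 3 stood apart by transcript length, as described below. Relative to WT 1, the depth read from the steps between low FPKM values was 0.79 in WT 2, 0.824 in KO 1, 0.651 in KO 2 and 0.946 in KO 3. In WT 3 the steps held for only 11.9% of low genes and gave 1.04, which was not relied on. The FPKM values of WT 3 summed to 637900, against 426970 to 472120 in the other 5 libraries.

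No member of the pathway passed limma's adjusted threshold of 0.05 between KO and WT, and the smallest adjusted p was 0.34, that of the glucose transporter gene Slc2a1. At an unadjusted p under 0.05 there was 1 member of 32, or 3.12%, against 1700 of 12539 tested genes, or 13.6% (0% at the adjusted threshold). The 1 member, Slc2a1, was higher in KO, as were 9.13% of all tested genes at that p, with 4.43% lower. The log2 differences, KO minus WT on the log2(FPKM + 1) scale, ran from -0.49 for Irs3 to 0.44 for Tbc1d1. Their median was -0.007, beside -0.053 over all tested genes. In 31 of 32 members the 95% interval of the difference lay within 1 either way on the log2(FPKM + 1) scale. The share was 84.6% of all tested genes, and Irs3 was the exception among the members. For genes of low level, such as Enpp1, the added 1 makes that bound wider than 2-fold in FPKM.

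Of the 32 members 15 had higher and 17 lower values in KO. That split depended on the scaling: 19 were higher with median-ratio scaling, 20 with quantile normalization and 7 after a correction for transcript length and GC content. Over all tested genes the share with higher values was 40.8%, and in the same order it was 48.6%, 40.4% and 34.1%. The 12 members whose sign held in every setting tried were Slc2a1, Tbc1d1, Foxo3 and Gsk3b, with higher values in KO, and Irs1, Irs3, Shc1, Pik3ca, Pik3cb, Pik3r3, Slc2a4 and Rps6kb1, with lower values.

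The number of calls over all genes depended on the libraries, while 0 of 32 members passed the adjusted threshold in every setting. With sample weights 7.74% of all tested genes passed it, and without WT 1 3.84% did. At an unadjusted p under 0.05 the share of all tested genes was 31.2% with sample weights, where 7 members were below it. Without KO 1 or KO 2 it was 6.91% and 7.03%, with 0 members in each.

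**Figure D1:**
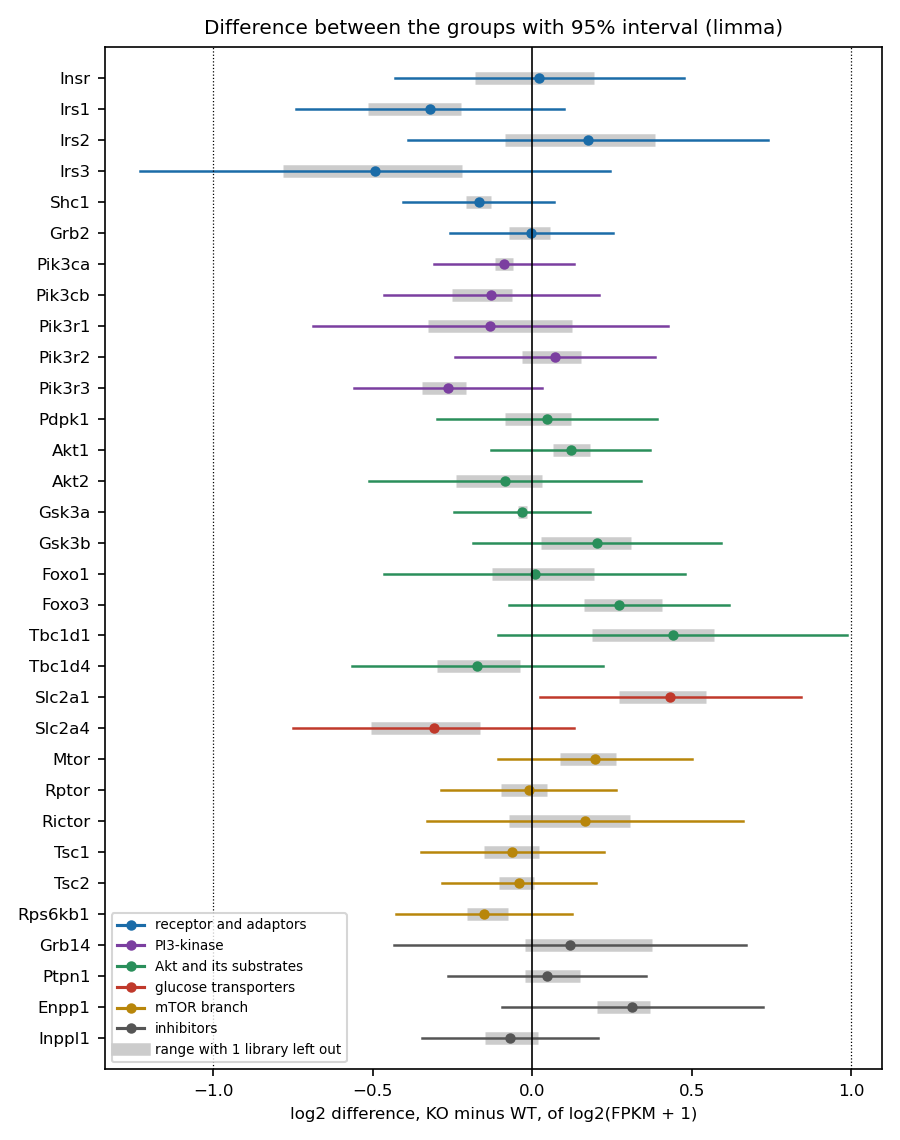
The log2 difference of each of the 32 genes, KO minus WT on the log2(FPKM + 1) scale (points, coloured by role), with limma's 95% interval (thin lines) and the range of the difference when 1 library is left out (grey bars). The intervals of 31 genes include 0, and that of Slc2a1 (0.02 to 0.84) does not. Only the interval of Irs3 passes the dotted lines, which mark a difference of 1 either way on that scale.

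In 4 of the 32 members the KO and WT libraries did not overlap, 3 with higher values in KO and 1 with lower. That is 12.5% of the members, against 22.2% of all tested genes (10.1% higher, 12.2% lower). The 3 were Slc2a1, Tbc1d1 and Enpp1 and the 1 was Shc1, and each had an exact two-sided permutation p of 0.1, the smallest that 3 libraries against 3 allow.

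The differences of the glucose transporter genes were of opposite sign, neither past the adjusted threshold. Slc2a1 encodes GLUT1, which carries glucose into most cells without need of insulin. Its WT libraries had 7.72, 8.54 and 5.53 FPKM and the KO libraries 11.4, 9.98 and 8.80 FPKM, each in the order 1, 2, 3. WT 3 was the lowest library and KO 1 the highest, and KO 3 lay just above WT 2. KO minus WT was 0.43 on the log2 scale (standard error 0.17), with a 95% interval from 0.02 to 0.84 (limma unadjusted p = 0.041, adjusted p = 0.34). Without WT 3 it was 0.27, and the unadjusted p was above 0.05 when WT 1, WT 3, KO 1 or KO 2 was left out.

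Slc2a4 encodes GLUT4, the transporter that insulin brings to the surface of fat and muscle cells. It had 141, 99.8 and 160 FPKM in the WT libraries and 108, 105 and 104 FPKM in the KO libraries. The KO libraries lay close together, and the WT libraries spread around them, with WT 2 below all 3 of them. KO minus WT was -0.31 on the log2 scale (standard error 0.19), with a 95% interval from -0.75 to 0.13 (limma adjusted p = 0.505), and with 1 library left out it ran from -0.50 (without WT 2) to -0.17 (without WT 3). With quantile normalization it was -0.06. Within a library, Slc2a4 FPKM was 11.7 to 29.0 times that of Slc2a1 in WT and 9.49 to 11.8 times in KO. On the log2(FPKM + 1) scale that ratio was lower by 0.74 in KO (4.02 ± 0.61 in WT and 3.28 ± 0.14 in KO, SD, n = 3 each, exact two-sided permutation p = 0.2, adjusted p = 0.45 over 9 pairs). The log2 ratio, KO minus WT, was -0.44 without WT 3 and -1.05 without WT 2.

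Transcripts of other cells also differed between the libraries, and their part in the results was not tested. The summed FPKM of marker lists is given here as a description only. The summed FPKM of 7 endothelial markers was 289.6, 287 and 141 in WT 1, WT 2 and WT 3 and between 230 and 257 in KO, so that WT 3 was lowest there as in Slc2a1. The 7 erythroid markers summed to between 1303 and 3538 FPKM in WT and between 506 and 1374 FPKM in KO, and all 6 tested ones had lower values in KO. The 8 skeletal muscle markers summed to 21.3, 26.6 and 92.9 FPKM in WT and to 19.4, 11.8 and 9.78 FPKM in KO. Outside WT 3 most of each sum was Acta1. Ckm had 10.3 FPKM in WT 3 and at most 0.156 FPKM in any other library. The 11 adipocyte markers summed to between 39773 and 75197 FPKM in WT and between 28880 and 34992 FPKM in KO, with 10 of 11 lower in KO. Most of each sum was Cfd and Fabp4. The groups overlapped in Plin1, Lep, Lipe, Plin4 and Pparg, and not in the other adipocyte markers. None of the adipocyte, endothelial and erythroid markers was at 0 in any library, and 3 of the muscle markers were at 0 in at least 1. In the summed markers of ciliated cells and of epithelium every KO library was above every WT library, with KO 3 the lowest of the KO libraries, as in Slc2a1. The 15 multiciliated markers summed to between 1.28 and 56.6 FPKM in WT and between 68.4 and 156 FPKM in KO, and the 9 epithelial markers to between 8.28 and 81.2 FPKM in WT and between 93.6 and 193 FPKM in KO. All 13 and 8 tested ones had an unadjusted p under 0.05 (limma). The 6 neutrophil markers summed to between 22.1 and 43.4 FPKM in WT and between 5.13 and 10.6 FPKM in KO. The 6 lymphocyte markers in the table summed to between 8.86 and 12.8 FPKM in WT and between 5.21 and 6.25 FPKM in KO, and the 6 mural cell markers to between 85.5 and 314 FPKM in WT and between 198 and 250.1 FPKM in KO.

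**Figure D2:**
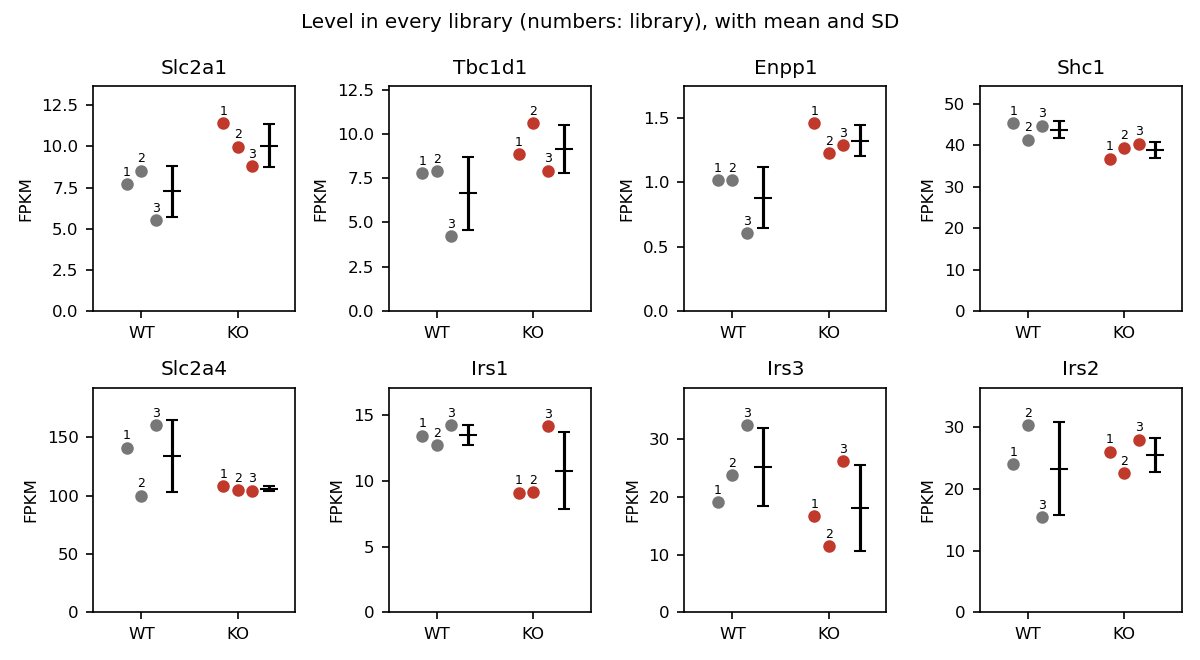
FPKM of 8 genes in every library (points, numbered by library, WT grey and KO red), with the mean and SD of 3 libraries beside each group. The upper row shows the 4 genes whose groups do not overlap. In the lower row Slc2a4 has KO libraries between 104 and 108 FPKM within a wide WT group, and KO 3 lies apart from KO 1 and KO 2 in Irs1 and Irs3.

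The receptor and its adaptors gave no difference past the threshold, with 2 of 6 higher and 4 lower in KO. Insr, the insulin receptor, had 29.7, 36.4 and 21.4 FPKM in the WT libraries and 27.1, 30.2 and 29.6 FPKM in the KO libraries. The KO libraries fell within the WT range, which WT 2 and WT 3 bounded. The log2 difference was 0.02 with a 95% interval from -0.43 to 0.48 (limma adjusted p = 0.964), and it ran from -0.18 without WT 3 to 0.19 without WT 2.

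The insulin receptor substrates are docking proteins that pass the signal from the receptor to PI3K, and rodents have a fat-rich form, IRS3. Irs1 had 13.4, 12.7 and 14.2 FPKM in WT and 9.08, 9.11 and 14.1 FPKM in KO 1, KO 2 and KO 3. KO 1 and KO 2 lay below all WT libraries and KO 3 lay among them, and KO minus WT was -0.32 on the log2 scale (standard error 0.18, limma adjusted p = 0.473). Irs3 had 19.1, 23.8 and 32.5 FPKM in WT and 16.7, 11.5 and 26.2 FPKM in KO, again with KO 1 and KO 2 below and KO 3 within the WT range. On the log2 scale its difference was -0.49 (standard error 0.31), with a 95% interval from -1.23 to 0.24 (limma adjusted p = 0.519).

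Irs2 did not share that pattern, and had 24.1, 30.4 and 15.4 FPKM in WT and 26.0, 22.6 and 28.0 FPKM in KO. WT 3 was lowest and WT 2 highest, with the KO libraries between them (log2 difference 0.17, standard error 0.24, limma adjusted p = 0.757). Irs2 exceeded Irs1 in all 6 libraries: the ratio of Irs1 to Irs2 FPKM was 0.418 to 0.925 in WT and 0.349 to 0.505 in KO (exact two-sided permutation p = 0.2, adjusted p = 0.45 over 9 pairs).

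Shc1 and Grb2 encode adaptors that lead from the receptor to the Ras pathway. Shc1 had 45.3, 41.4 and 44.7 FPKM in WT and 36.7, 39.4 and 40.4 FPKM in KO, with every KO library below every WT library. The difference was small, -0.17 on the log2 scale (standard error 0.10, limma adjusted p = 0.501), and ran from -0.21 to -0.13 with 1 library left out. It was -0.04 with quantile normalization and -0.25 after the length and GC correction. Grb2 lay between 31.7 and 38.2 FPKM in the 6 libraries, with a log2 difference of -0.003.

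The promoters of Slc2a1, Irs1 and Irs2 are printed because these genes gave 3 different patterns over the libraries: all KO libraries higher, KO 1 and KO 2 lower, and no separation. Each is the 250 bases before the RefSeq start site, 5′ to 3′ on the gene's strand, in build GRCm38.p6, at chr4:119108495-119108744 (plus strand), chr1:82291440-82291689 (minus strand) and chr8:11008930-11009179 (minus strand). Capitals mark GC boxes (GGGCGG or CCGCCC) and E-boxes (CACGTG).
Slc2a1: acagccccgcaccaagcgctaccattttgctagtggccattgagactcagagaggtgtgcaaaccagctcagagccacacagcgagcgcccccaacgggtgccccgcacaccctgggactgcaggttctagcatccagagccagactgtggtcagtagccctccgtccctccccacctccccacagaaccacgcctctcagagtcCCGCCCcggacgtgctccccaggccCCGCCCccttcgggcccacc
Irs1: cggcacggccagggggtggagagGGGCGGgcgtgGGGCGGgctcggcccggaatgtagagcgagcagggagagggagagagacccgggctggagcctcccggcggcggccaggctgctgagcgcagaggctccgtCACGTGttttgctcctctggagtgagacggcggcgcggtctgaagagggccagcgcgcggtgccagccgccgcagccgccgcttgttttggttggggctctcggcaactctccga
Irs2: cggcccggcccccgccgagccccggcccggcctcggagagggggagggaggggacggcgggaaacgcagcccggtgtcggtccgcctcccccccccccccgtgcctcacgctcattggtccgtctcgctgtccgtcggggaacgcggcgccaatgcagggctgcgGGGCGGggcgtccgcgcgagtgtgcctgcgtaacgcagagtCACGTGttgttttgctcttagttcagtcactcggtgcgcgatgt
Slc2a1 held 2 GC boxes and no E-box in this window. Irs1 held 2 GC boxes and 1 E-box, and Irs2 held 1 of each. An E-box of these letters was found in 2 of the 42 windows of the 30 members matched in the RefSeq promoter table, those of Irs1 and Irs2, and in 6.02% of all 32851 windows of that length. A GC box was found in 27 of the 42 windows and in 32.7% of all. The FOXO site GTAAACA, searched on both strands like the others, was found in 1 of the 42, at Akt1, and in 3.17% of all. A match is a description of letters in this window. Insr and Slc2a4 were the members not matched.

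The 5 PI3K genes had 1 higher and 4 lower value in KO, none past the threshold. Pik3r1, the main regulatory subunit, was the most abundant, with 55.1, 51.5 and 63.2 FPKM in the WT libraries and 55.8, 35.8 and 67.9 FPKM in the KO libraries. KO 2 was the lowest and KO 3 the highest of all 6 libraries. On the log2 scale the difference was -0.13 (standard error 0.23, limma adjusted p = 0.815), and it was 0.12 without KO 2.

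The regulatory subunit Pik3r2 lay between 16.1 and 21.9 FPKM and Pik3r3 between 4.75 and 7.02 FPKM. Pik3r3 had the smallest p of the PI3K genes, with a log2 difference of -0.26 and a standard error of 0.12 (limma unadjusted p = 0.071, adjusted p = 0.414), and KO 3 (5.94 FPKM) lay just above WT 3 (5.93 FPKM), the only overlap. Of the catalytic subunits, Pik3ca lay between 15.2 and 17.3 FPKM (log2 difference -0.09) and Pik3cb between 9.84 and 13.1 FPKM (log2 difference -0.13, from -0.06 without KO 1 to -0.25 without KO 3). Within a library Pik3r1 FPKM was 3.01 to 3.91 times that of Pik3ca in WT and 2.23 to 4.19 times in KO, so the KO range enclosed the WT range.

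Among Akt, its activating kinase PDK1 and its substrates 6 of 9 genes had higher and 3 lower values in KO. Akt2, the isoform tied to glucose uptake, was the most abundant member of the whole pathway by its mean of 128 FPKM, with Slc2a4 next at 120 FPKM, and the ranges of the 2 genes overlapped. Akt2 had 105, 139 and 153 FPKM in the WT libraries and 141, 123 and 109 FPKM in the KO libraries, with all KO libraries inside the WT range (log2 difference -0.08, standard error 0.18, limma adjusted p = 0.847). Akt1, the isoform tied to growth, had 47.6, 52.1 and 44.2 FPKM in WT and 51.7, 52.7 and 52.0 FPKM in KO (log2 difference 0.12, standard error 0.10, limma adjusted p = 0.626), and the difference was 0.06 without WT 3. Akt2 exceeded Akt1 in every library, 2.21 to 3.46 times in WT and 2.09 to 2.72 times in KO.

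Pdpk1, which encodes the Akt-activating kinase PDK1, lay between 13.7 and 18.5 FPKM (log2 difference 0.05). Gsk3a was the steadiest member: it lay between 31.1 and 32.7 FPKM in the 6 libraries, with a log2 difference of -0.03. Gsk3b, the other glycogen synthase kinase 3, lay between 15.4 and 16.8 FPKM in 5 libraries and at 10.7 FPKM in WT 3. Its log2 difference of 0.20 was 0.03 without WT 3.

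The FOXO factors switch on genes of fasting when Akt is inactive. Foxo1 had 14.6, 23.3 and 16.6 FPKM in WT and 18.6, 20.9 and 14.9 FPKM in KO, with all KO libraries inside the WT range (log2 difference 0.01, 95% interval from -0.46 to 0.48, limma adjusted p = 0.987). Foxo3 lay between 7.87 and 11.4 FPKM in WT and between 10.8 and 12.3 FPKM in KO, where WT 2 reached into the KO range (log2 difference 0.27, standard error 0.15, limma adjusted p = 0.466). It was 0.16 without WT 3 and 0.41 without WT 2.

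TBC1D4 and TBC1D1 hold GLUT4 vesicles back until Akt phosphorylates them. Tbc1d4 had 13.4, 16.1 and 19.8 FPKM in WT and 15.1, 12.3 and 15.8 FPKM in KO (log2 difference -0.17, standard error 0.17, limma adjusted p = 0.656), and this ran from -0.30 without WT 1 to -0.04 without WT 3. Tbc1d1 had 7.79, 7.88 and 4.23 FPKM in WT and 8.86, 10.6 and 7.91 FPKM in KO. The groups did not overlap, though KO 3 was barely above WT 2 and WT 3 stood far below the rest. KO minus WT was 0.44 on the log2 scale (standard error 0.23, limma unadjusted p = 0.098, adjusted p = 0.456), and it was 0.19 without WT 3. The ratio of Tbc1d4 to Tbc1d1 FPKM was 1.72 in WT 1, 4.68 in WT 3 and between 1.16 and 1.99 in KO, and WT 3 stood apart from the other 5 libraries (exact two-sided permutation p = 0.2, adjusted p = 0.45 over 9 pairs).

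The mTOR branch had 2 of 6 members higher and 4 lower in KO, with no adjusted p under 0.531. Mtor, the kinase of both mTOR complexes, had 11.7, 12.1 and 9.32 FPKM in WT and 13.1, 13.4 and 11.8 FPKM in KO (log2 difference 0.20, standard error 0.13). WT 3 was lowest, KO 3 lay between WT 1 and WT 2, and the difference was 0.09 without WT 3 and -0.04 after the length and GC correction. Rptor, the scaffold of complex 1, lay between 6.89 and 8.62 FPKM and Rictor, that of complex 2, between 3.56 and 6.71 FPKM, and WT 3 was lowest in each. Their log2 differences were -0.01 and 0.16. The TSC complex genes Tsc1 and Tsc2 lay between 5.55 and 7.31 and between 18.7 and 22.0 FPKM, with log2 differences of -0.06 and -0.04. Rps6kb1, the ribosomal S6 kinase that complex 1 activates, lay between 14.4 and 19.4 FPKM (log2 difference -0.15, limma adjusted p = 0.587).

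The 4 inhibitors act at the receptor or on the lipid that PI3K makes. Enpp1, an ectoenzyme that binds the receptor, was the least abundant member, with 1.01, 1.01 and 0.605 FPKM in WT and 1.46, 1.22 and 1.29 FPKM in KO. Every KO library exceeded every WT library. KO minus WT was 0.31 on the log2 scale (standard error 0.17, limma adjusted p = 0.473). At this low level the difference on the log2(FPKM + 1) scale understates the ratio of means, 1.51, and the quantile-normalized difference was -0.09.

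Grb14, an adaptor that blocks the receptor's kinase, had 11.1, 9.80 and 13.1 FPKM in WT and 15.2, 14.7 and 8.33 FPKM in KO. KO 1 and KO 2 were above all WT libraries and KO 3 was below all of them, and the log2 difference was 0.12 (limma adjusted p = 0.835). Ptpn1, the phosphatase PTP1B that inactivates the receptor, lay between 14.1 and 18.3 FPKM (log2 difference 0.05). Inppl1, the lipid phosphatase SHIP2, lay between 21.4 and 27.3 FPKM (log2 difference -0.07).

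**Figure D3:**
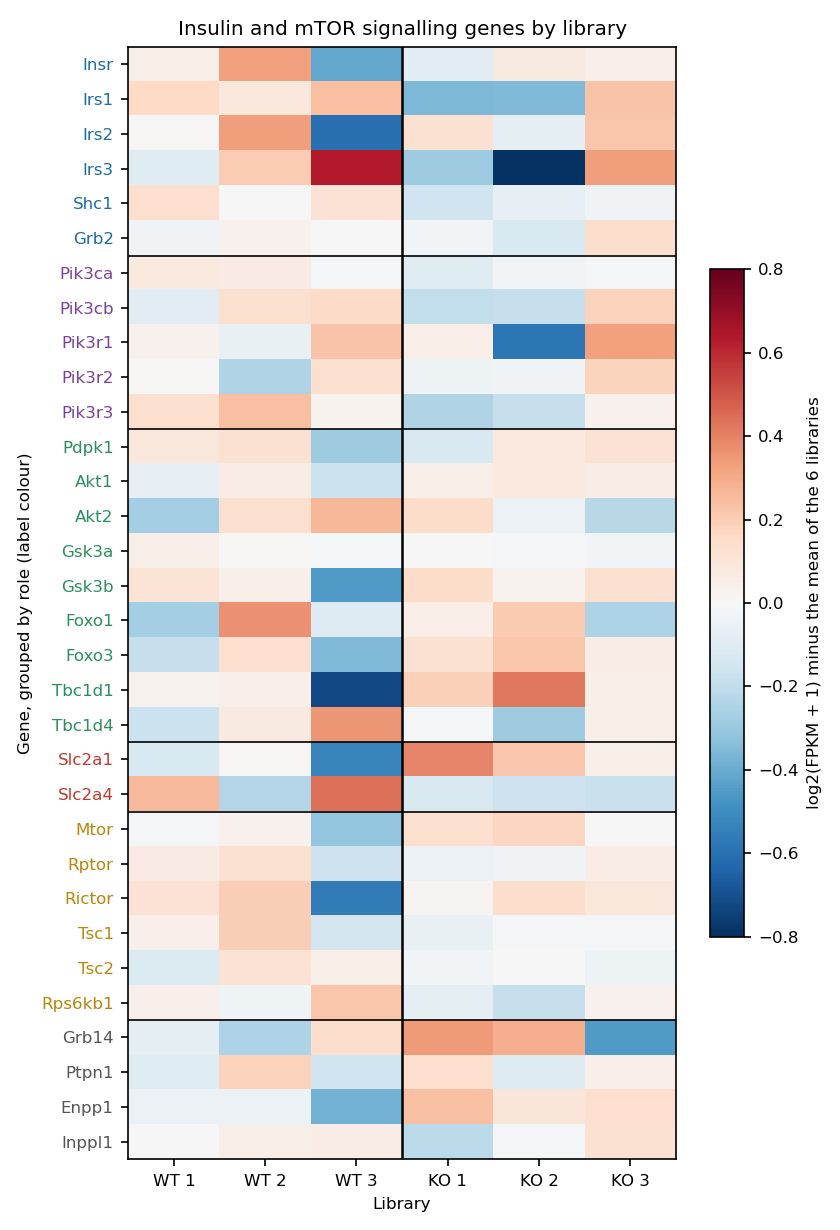
Heat map of the 32 genes (vertical axis, grouped by role) in the 6 libraries (horizontal axis), coloured by log2(FPKM + 1) minus the gene's mean over the libraries. WT 3 is the lowest library in 14 genes, and KO 1 and KO 2 differ from KO 3 in Irs1, Irs3 and Grb14.

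WT 3 was the lowest of the 6 libraries in 14 of 32 members (43.8%), against 27% of all tested genes. These genes have long transcripts: the median of the longest annotated transcript was 6397 nt over the members and 3360 nt over all tested genes. Among the 18 members over 6000 nt, WT 3 was lowest in 11 (61.1%), against 60% of the 1766 tested genes of that length. The median of WT 3 minus the mean of the other libraries was -0.27 on the log2 scale in those 18 members and -0.25 in all tested genes of that length, so the members' share was near the background for their length. Among shorter genes Slc2a1, with a transcript of 3260 nt, was lower in WT 3 by 0.64, where the median of the tested genes of 3000 to 6000 nt was 0.002. Irs3 and Slc2a4 were higher in WT 3, by 0.76 and 0.53.

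**Figure D4:**
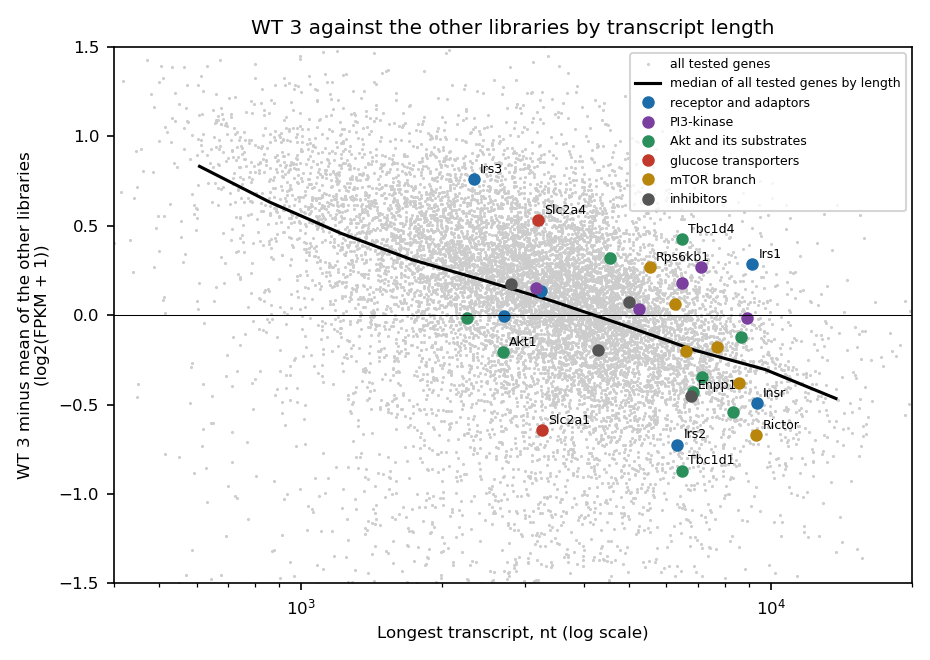
WT 3 minus the mean of the other 5 libraries on the log2(FPKM + 1) scale (vertical axis) against the longest annotated transcript in nt (horizontal axis, log scale) for all tested genes (grey), with their median by length (black line) and the 32 members coloured by role. Most members lie at the long end, where the line is below 0, and Slc2a1, Irs2 and Tbc1d1 lie below the line and Irs3 and Slc2a4 above it.

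After the length and GC correction 25 of the 32 members had lower and 7 higher values in KO, with a median of -0.125 beside -0.089 over all tested genes. Of these, 3 had an unadjusted p under 0.05, Shc1, Rptor and Tsc1, against 16.8% of all tested genes. Slc2a1 had a log2 difference of 0.34 there and Slc2a4 one of -0.41.

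KO 3 was also set against KO 1 and KO 2. In 6 of 32 members (18.8%) KO 1 and KO 2 lay on the same side of the WT range while KO 3 lay within it. Over all tested genes the share was 13.6%. The same count was not made with KO 1 or KO 2 as the library within, so it does not set KO 3 apart. The 6 members were Irs1, Irs3, Pik3ca, Pik3r3 and Rps6kb1, where KO 1 and KO 2 were low, and Mtor, where they were high. Without KO 3, 4 members (Irs1, Irs3, Pik3r3 and Slc2a1) had an unadjusted p under 0.05, or 12.5%, near the 13.5% of all tested genes in that setting. There the log2 differences of Irs1 and Irs3 were -0.52 and -0.78. KO 3 also had less ciliated and epithelial RNA than KO 1 and KO 2: the summed FPKM of 15 multiciliated markers was 68.4 against 156 and 156, and that of 9 epithelial markers was 93.6 against 182 and 193. The 7 macrophage markers summed to 856 FPKM in KO 3 against 594 and 589, and most of each sum was Lyz2 (624 against 426 and 418). Adgre1, Cd68, Mrc1 and Csf1r were also higher in KO 3 than in KO 1 and KO 2, while Cd163 and Mertk were lower. The part of these cells in the members' values was not tested.

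The median coefficient of variation over the 6 libraries was 14.8% in the members, beside 17.4% over all tested genes. In the 18 members over 6000 nt it was 16.4%, beside 15.2% in all tested genes of that length. Of 9 ratios between related members within a library, none had an adjusted p under 0.45. These were the ratios described above, with Foxo1 to Foxo3 (log2 difference -0.26), Rptor to Rictor (-0.18), Tsc1 to Tsc2 (-0.02) and Gsk3a to Gsk3b (-0.24). Without WT 3 the log2 difference was -0.20 for Irs1 to Irs2, -0.22 for Tbc1d4 to Tbc1d1, -0.04 for Akt2 to Akt1, -0.20 for Foxo1 to Foxo3 and -0.07 for Gsk3a to Gsk3b. The ratio of Gsk3a to Gsk3b was 2.01 to 2.93 in WT and 1.88 to 2.03 in KO.

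The pathway's other genes were read from 6 lists with 103 genes, of which 101 were tested. An unadjusted p under 0.05 was found for 11 of them, 7 with higher and 4 with lower values in KO, and the adjusted threshold for none. That is 10.9%, against the 13.6% of all tested genes. The median log2 difference over the 101 was -0.06.

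Among 18 tested inhibitors and phosphatases of the insulin signal 3 had an unadjusted p under 0.05. Ptprf, a receptor-type tyrosine phosphatase of epithelia and other cells, had 11.0, 6.70 and 3.82 FPKM in WT and 19.9, 19.3 and 12.7 FPKM in KO (log2 difference 1.23, limma adjusted p = 0.223). Grb7, an adaptor related to GRB14, had 3.06, 0.038 and 0.292 FPKM in WT and 8.68, 8.70 and 3.33 FPKM in KO (log2 difference 2.07, limma adjusted p = 0.223). In both genes WT 1 was above WT 2 and WT 3, and KO 3 below KO 1 and KO 2. These 2 features were shared by the epithelial gene Epcam, with 14.2, 0.199 and 0.191 FPKM in WT and 30.8, 34.3 and 16.4 FPKM in KO. All 8 tested epithelial markers had an unadjusted p under 0.05 and higher values in KO. The part of epithelial RNA in Ptprf and Grb7 was not tested. Ppp2ca, the catalytic subunit of protein phosphatase 2A, had a log2 difference of -0.35.

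Of 16 other receptor, adaptor and kinase genes Igf1r, the receptor of insulin-like growth factor 1, had 4.06, 3.20 and 1.91 FPKM in WT and 6.22, 6.80 and 4.61 FPKM in KO (log2 difference 0.79, limma adjusted p = 0.227). The groups did not overlap, and WT 1 and KO 3 lay next to each other. Gab1, a docking protein, and Prkcz, an atypical protein kinase C, had log2 differences of 0.49 and 0.58, and Gab1 overlapped between the groups. In Igf1r, Gab1 and Prkcz, WT 1 was the highest WT library and KO 3 the lowest KO library, as in the epithelial gene Epcam, and the part of epithelial RNA in them was not tested.

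Of 29 tested genes of the mTOR complexes, TSC and amino acid sensing 10 had higher and 19 lower values in KO. Castor1, the arginine sensor upstream of mTOR complex 1, had 8.51, 9.14 and 8.50 FPKM in WT and 14.5, 14.2 and 9.91 FPKM in KO (log2 difference 0.50, limma adjusted p = 0.24). Flcn, folliculin, had 21.0, 29.7 and 24.2 FPKM in WT and 17.9, 17.4 and 19.7 FPKM in KO (log2 difference -0.42, limma adjusted p = 0.282). Rragd, a Rag GTPase, had a log2 difference of 1.01, with 1.73 FPKM in WT 1 against 0.134 and 0.206 FPKM in WT 2 and WT 3. In Rragd, as in Epcam, WT 1 was the highest WT library and KO 3 the lowest KO library. In Castor1 KO 3 was the lowest KO library too, but WT 1 was not the highest WT library. The part of epithelial RNA in both genes was not tested.

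Of 11 translation targets of mTOR, Eif4ebp1, the repressor of cap-dependent translation that mTOR inactivates, had 151, 162 and 287 FPKM in WT and 114, 106 and 140 FPKM in KO (log2 difference -0.68, limma adjusted p = 0.328). The groups did not overlap, and WT 3 was far above the rest. Of 10 metabolic targets of insulin, among them adipocyte lipid genes such as Lpl, Pnpla2, Fasn and Acly, 1 had a higher value in KO, against 40.8% of all tested genes. The median log2 difference was -0.31, beside -0.053 over all tested genes. The adipocyte markers had lower values in KO in 10 of 11, from -0.78 for Retn to -0.086 for Plin1, and Plin4 had a higher value (0.095). Adipoq (-0.67) and Fabp4 (-0.76) were near the large end, and in both WT 3 was far above the other libraries. The part of adipocyte RNA in the values of the insulin targets was not tested. Gys1, glycogen synthase, had 56.0, 54.9 and 67.1 FPKM in WT and 42.8, 44.4 and 52.1 FPKM in KO (log2 difference -0.35, limma adjusted p = 0.321). None of 17 genes of glucose transporter vesicle traffic had an unadjusted p under 0.05 (limma), and 4 of the 17 had higher values in KO, against 40.8% of all tested genes. In 4, Stx4a, Snap23, Rab8a and Rab10, the KO libraries lay below all WT libraries, against 12.2% of all tested genes. Their log2 differences ran from -0.30 for Stx4a to -0.08 for Rab10. WT 3 was well above the other libraries in Stx4a and Rab8a, and was not the highest in Snap23 and Rab10.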

How the data were processed

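RNA from epididymal white adipose tissue was sequenced in 6 libraries, 3 labelled WT and 3 labelled KO. Per the submitters' processing notes, the tools were STAR 2.5.4, Cuffdiff 2.2.1 and Cufflinks, and the build was mm10. The authors deposited 1 column per library without pooling, and its values were read as FPKM, a unit that no header names and that was inferred from those tools and from the values. The library normalization is not given in the sources used here. The table holds no counts, so total depth is unknown and no count test was run.

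Of 21853 rows, 24 repeated a symbol and only the one of highest mean stayed in. The filter asked for a mean of 1 FPKM or more and left 12539 genes, whose log2(FPKM + 1) values were fitted by limma 3.58.1 (R 4.3.3) on the group alone, a mean-variance trend and Benjamini-Hochberg adjustment at 0.05. The fit was tested on simulated data. Ratios within a library and single genes were compared by an exact two-sided permutation test. GENCODE vM21 (GRCm38, the assembly of mm10) gave transcript lengths and GC content, with a value for every tested gene. Alternatives changed the pseudocount (0.1, 0.5), the filter (none, or a mean of 5 FPKM or more), the scaling (quantile or median-ratio) and the fit (no trend, sample weights, each library left out, the replicate number as a block), or corrected for length and GC content. Filters always used the mean over all 6 libraries. Marker genes Dnai1 and Dnai2 were read under their synonyms Dnaic1 and Dnaic2, and 1 lymphocyte marker had no match.

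The members, the gene lists and the alternatives were chosen with earlier results of these data known. The genes named with values were Zfp251, the members that had an unadjusted p under 0.05 or groups that did not overlap, 11 members fixed by name, the others by range, and up to 3 genes per direction of each other list with the smallest unadjusted p under 0.05. Values in every library for Irs3 and Grb14 were added after they were seen. The replicate numbers do not pair the libraries in the labels.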

Additional observations from a re-analysis of the deposited data

How the results depend on the processing

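No member passed the adjusted threshold in any setting. Over all genes none passed in the main setting or in any alternative except sample weights, with 970 genes, and with 1 library left out the number ran from 0 to 482, the latter without WT 1. The members at an unadjusted p under 0.05 numbered 1 of 32, and 2 with quantile normalization, 7 with sample weights, 3 after the length and GC correction, and from 0 (without WT 1, KO 1 or KO 2) to 4 (without KO 3). The shares of all tested genes were 13.6%, 14.4%, 31.2% and 16.8% in the first 4 of these settings. They were 14.7% without WT 1, 6.91% without KO 1, 7.03% without KO 2 and 13.5% without KO 3. The share was largest without WT 2, at 17.5%, where 3 members (Foxo3, Slc2a1 and Slc2a4) had such a p. With no filter on low values the 1 member was Enpp1, and Slc2a1 was no longer below that p. The replicate number as a block gave 3 (Irs3, Tbc1d1 and Slc2a1) where 13.7% of all tested genes had such a p, and 0 genes past the adjusted threshold. The correlations of same-numbered libraries' deviations from their group means, across genes, were 0.228, -0.2 and 0.22, so the numbers were not taken as pairs. The members with higher values in KO numbered 7 after the length and GC correction, and from 10 (without WT 3) to 18 (without WT 2) with a library left out. The members' median was 0.041 with median-ratio scaling, 0.059 with quantile normalization, -0.125 after the length and GC correction, and from -0.048 to 0.018 with a library left out.

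The sign turned in at least 1 setting for 20 of 32 members, and the cause was not tested. Median-ratio scaling gave 0.048 for Grb2, 0.019 for Gsk3a, 0.035 for Rptor and 0.008 for Tsc2. Quantile normalization gave 0.112 for Grb2, 0.027 for Pik3r1, 0.146 for Akt2, 0.07 for Gsk3a, 0.019 for Tsc2, -0.089 for Enpp1 and 0.002 for Inppl1. Sample weights gave -0.083 for Insr, -0.117 for Pdpk1, 0.252 for Akt2, 0.047 for Tbc1d4, -0.04 for Rictor and 0.062 for Tsc2. The length and GC correction gave -0.095 for Insr, -0.046 for Irs2, -0.115 for Pik3r2, -0.008 for Pdpk1, -0.022 for Akt1, -0.122 for Foxo1, -0.038 for Mtor and -0.093 for Ptpn1. With a library left out the difference ran from -0.178 to 0.193 for Insr, -0.085 to 0.384 for Irs2, -0.074 to 0.057 for Grb2, -0.328 to 0.124 for Pik3r1, -0.032 to 0.152 for Pik3r2, -0.084 to 0.121 for Pdpk1, -0.24 to 0.029 for Akt2, -0.126 to 0.192 for Foxo1, -0.097 to 0.046 for Rptor, -0.073 to 0.305 for Rictor, -0.151 to 0.021 for Tsc1, -0.105 to 0.007 for Tsc2, -0.023 to 0.375 for Grb14, -0.022 to 0.151 for Ptpn1 and -0.148 to 0.019 for Inppl1. In the same way the log2 ratio of Pik3r1 to Pik3ca ran from -0.224 to 0.222 and that of Tsc1 to Tsc2 from -0.126 to 0.05. With 3 libraries a group, the 95% interval lay within 1 either way on the log2(FPKM + 1) scale in 31 of 32 members. Only that of Slc2a1 excluded 0. The widths differed between members, from -0.244 to 0.182 for Gsk3a and from -1.228 to 0.245 for Irs3. Changes that lie inside a member's interval were not resolved.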

Other observations

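Among genes that act on the pathway from outside, chosen after their values were seen, some differed more between single libraries than between the groups. Ddit4, a stress-induced inhibitor of mTOR complex 1, had 48.2, 63.2 and 16.9 FPKM in WT and 67.7, 119 and 47.4 FPKM in the KO libraries. WT 3 was lowest and KO 2 highest. Sgk1, a kinase related to Akt that glucocorticoids induce, had 74.8, 119 and 18.6 FPKM in WT and 35.2, 63.9 and 46.4 FPKM in KO, again with WT 3 lowest. The log2 differences were 0.94 for Ddit4 (limma adjusted p = 0.482) and -0.23 for Sgk1 (limma adjusted p = 0.887). Their longest annotated transcripts have 1755 and 3096 nt.

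Igf1, the growth factor gene, had 130, 87.9 and 170 FPKM in WT and 78.4, 74.4 and 111 FPKM in KO (log2 difference -0.52, limma adjusted p = 0.451). KO 1 and KO 2 lay below all WT libraries and KO 3 among them, as in Irs1 and Irs3. Rheb, the GTPase that activates mTOR complex 1, had 59.0, 54.9 and 84.8 FPKM in WT and 52.9, 50.1 and 46.7 FPKM in KO, with no overlap and a log2 difference of -0.38 (limma adjusted p = 0.418).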
